A study of Homo sapiens with 11 samples.

Results

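The genes described here are 34 molecular chaperones, co-chaperones and their regulator HSF1, picked by symbol from the 35303 genes of a deposited RNA-seq count file. All 34 were found and all 34 passed the filter on low counts that left 16117 genes. They were proposed with their levels in the 3 treatment groups in view, so the treatment comparisons below describe them and support nothing. By role they are HSP90 and its co-chaperones (9 genes), the HSP70 and HSP110 proteins with BAG3 (7), J-domain proteins (5), small heat shock proteins (2), mitochondrial chaperones (3), subunits of the TRiC ring (7) and HSF1. HSPA9, HSPD1 and HSPE1 are chaperones of the mitochondrial matrix, so the name cytosolic does not cover those 3 genes. CCT6A, the other TRiC subunit expressed in most tissues, is not on the list.

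The cells were Lx2 (LX-2), a human line derived from stellate cells, which store vitamin A in the liver and turn into matrix-producing myofibroblasts after injury, grown in DMEM with fetal bovine serum. One group received HIV-1 BaL, a laboratory strain of the virus, at a multiplicity of infection of 0.1 together with lipoteichoic acid (LTA) of Gram-positive bacteria at 1 µg per mL. A second group received the same virus alone, and the control group received PBS per the sample labels, where the description of the series names medium; all were taken at 24 h. Each group had 3 RNA-seq libraries, 1 from each of 3 numbered batches, and what a batch stands for is not stated in the labels. No group had LTA without virus, and nothing in the labels says that the libraries came from separate cultures, so the spread that the p-values measure may be a technical one.

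Chaperones bind unfolded proteins and help them reach or keep their shape. HSP70 proteins take up exposed stretches with the help of J-domain proteins, HSP90 and its co-chaperones finish many kinases and steroid receptors, and the TRiC ring encloses and folds actin and tubulin. Under heat or other protein damage the transcription factor HSF1 binds heat shock elements, repeats of GAA and its complement TTC spaced 2 bases apart, and switches on many of these genes.

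The promoters show which members carry such elements close to their start. RefSeq promoter sequences (GRCh38.p14, from 250 bases before the start to 50 after it) matched 31 of the 34 genes. Some genes, CCT2 and DNAJB1 among them, had matches from different promoter sequences. The 31 member promoters below are thus genes, counted where any of their sequences matched, and a start is that of the sequence matched. Whether the 35116 promoters of all genes were counted in the same way was not checked. A run of 3 alternating units, searched on both strands, was present in 8 of 31 member promoters (25.8%), against 172 of 35116 promoters of all genes (0.49%). The shorter form of 2 units, GAANNTTC or TTCNNGAA, which every 3-unit run also contains, was present in 19 of 31 member promoters (61.3%) and in 13.5% of all promoters. CCAAT, searched on both strands as a common promoter motif for comparison, was present in 35.5% of the members' promoters and in 34.6% of all promoters. The stretches below hold the 7 promoters with a 3-unit run before the start, and the inducible pair HSPA1A and HSPA1B, which carry a 2-unit match; each is written 5′ to 3′ on the gene's strand with the match in capitals. A match is a description of the letters and not a measured binding site.
HSPA6 (chr1:161524442-161524502, plus strand): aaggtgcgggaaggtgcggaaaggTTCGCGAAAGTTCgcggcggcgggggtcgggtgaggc
HSPD1 (chr2:197500044-197500090, minus strand): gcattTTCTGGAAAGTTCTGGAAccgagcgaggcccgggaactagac
HSPA1A (chr6:31815413-31815468, plus strand): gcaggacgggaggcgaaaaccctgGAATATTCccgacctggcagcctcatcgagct
HSPA1B (chr6:31827609-31827664, plus strand): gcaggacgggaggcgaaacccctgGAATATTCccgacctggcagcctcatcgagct
HSP90AB1 (chr6:44247754-44247867, plus strand): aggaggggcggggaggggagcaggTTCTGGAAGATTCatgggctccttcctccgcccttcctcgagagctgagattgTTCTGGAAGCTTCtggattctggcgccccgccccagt
DNAJB6 (chr7:157336849-157336909, plus strand): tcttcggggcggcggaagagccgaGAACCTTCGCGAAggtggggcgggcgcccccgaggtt
CHORDC1 (chr11:90223063-90223133, minus strand): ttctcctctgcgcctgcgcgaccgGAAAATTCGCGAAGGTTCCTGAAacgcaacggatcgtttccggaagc
HSPA8 (chr11:123062155-123062215, minus strand): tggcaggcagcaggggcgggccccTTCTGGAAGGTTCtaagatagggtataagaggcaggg
HSP90AA1 (chr14:102087096-102087156, minus strand): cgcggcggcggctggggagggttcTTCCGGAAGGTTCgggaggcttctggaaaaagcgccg
DNAJA1, the remaining member with such a run, has it 3 bases after its start and is not shown. HSP90AB1 shows both of its 3-unit runs, while for HSPA8 the run nearest to the start is shown. The HSPA1A and HSPA1B stretches are near copies of each other, as are the transcripts: 75.1% of the 50-base words of HSPA1A transcripts also occur in another gene, mainly HSPA1B. Reads of that pair could be split between the genes in ways the counting does not record. The same limit holds for HSPA6, which shares 45.8% of its words with other genes, chiefly HSPA7, and for HSPE1 at 48.2%.

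The libraries held 50.6 to 90.6 M counts, and the 34 genes took 1.39% to 1.71% of them in HIV-1+LTA libraries, 1.67% to 1.77% in HIV-1 libraries and 1.5% to 1.73% in PBS libraries. All 8 markers of stellate cells and myofibroblasts reached at least 1 CPM (a gene's counts scaled to a common library total) in every library, with summed levels of 3659 to 4180 CPM in HIV-1+LTA, 3825 to 3892 CPM in HIV-1 and 3237 to 4391 CPM in PBS. Markers of macrophages and T cells summed to 4.31 to 21.9 CPM in HIV-1+LTA, 3.48 to 17.3 CPM in HIV-1 and 2.82 to 16.8 CPM in PBS, with CD163 at 0 in HIV-1+LTA and HIV-1 libraries and CD3E at 0 in HIV-1 libraries. Hepatocyte markers summed to 1.28 to 2.11 CPM in HIV-1+LTA, 0.547 to 1.4 CPM in HIV-1 and 0.396 to 1.78 CPM in PBS, with TTR at 0 in the last 2 groups. Endothelial markers stayed at or below 2.12 CPM and epithelial markers at or below 8.08 CPM in every library. In bulk RNA, fewer cells of a type and less RNA per cell cannot be told apart.

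Levels per transcript length in PBS cells put HSPA8 and the HSP90 genes first. Each level is counts per kilobase as a share of that sum over all genes with a length (in TPM), given as the mean over the 3 PBS libraries with the lowest and highest library. HSPA8, the constitutive HSP70 of the cytosol, stood highest at 3865 (3058 to 4815). HSP90AA1, the stress-responsive HSP90, followed at 2367 (1601 to 3038), and HSP90AB1, the constitutive HSP90, at 1730 (1464 to 2141). The ranges of those HSP90 genes overlapped each other, while the HSPA8 range lay above both.

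Next came the mitochondrial pair and the TRiC ring. HSPE1, the lid of the mitochondrial folding chamber, had a level of 1328 (1069 to 1659), and HSPD1, which forms the chamber, 1013 (856 to 1222). TRiC subunits, which enter the ring in equal numbers, spanned a per-length level of 335 for CCT4 to 1320 for CCT5. Among the inducible HSP70 genes HSPA1A had a level of 65.3, HSPA1B 45.6 and HSPA6 0.39, below every other member. HSF1 had a level of 19.0 and PTGES3L, a relative of the HSP90 co-chaperone p23, 2.95. Between neighbours in this order the ranges failed to overlap at only 5 places: HSPA8 over HSP90AA1, CCT5 over HSPD1, HSPA1B over HSPB8, HSF1 over PTGES3L, and PTGES3L over HSPA6.

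**Figure D1:**
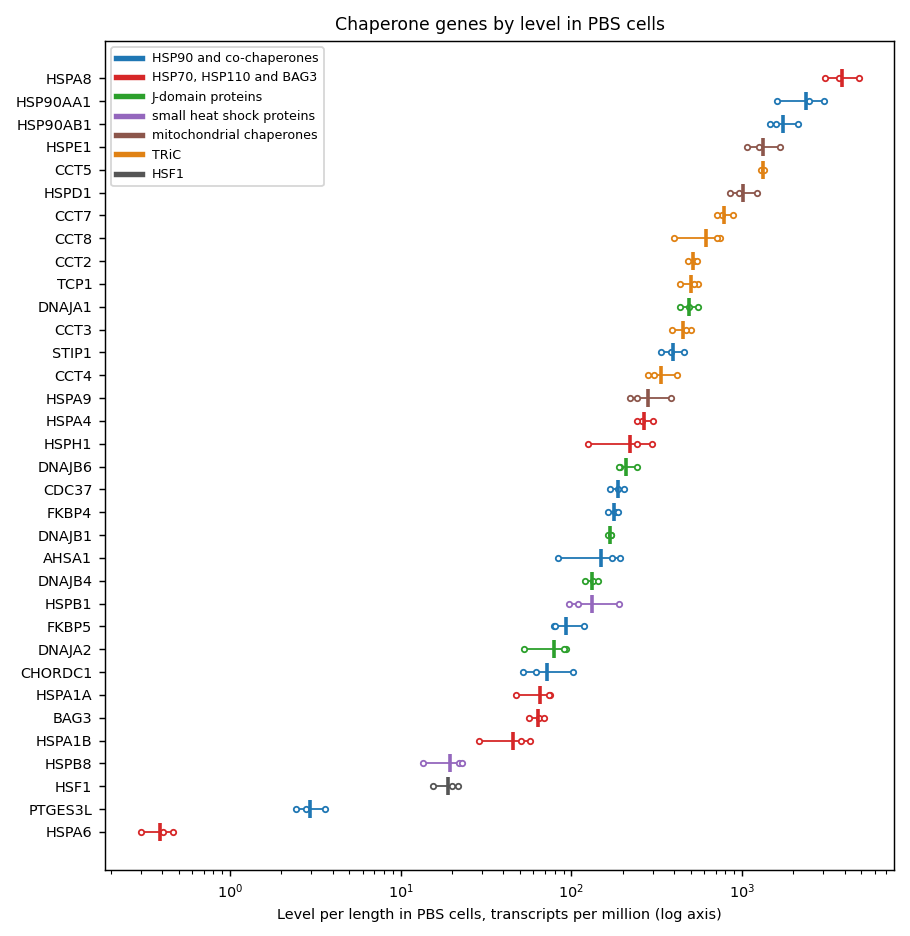
Per-length level of the 34 genes in the 3 PBS libraries on a log axis, in order of the mean and coloured by role, with 1 open point per library, an upright bar at the mean and a line over the range. HSPA8 lies highest at a mean of 3865 and HSPA6 lowest at 0.39, and the libraries of most genes lie close to each other relative to the distance between genes.

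Cells with HIV-1 and PBS cells were compared to ask what the virus did by 24 h. No member passed, and the member furthest from no difference was HSPA6, a strictly stress-inducible HSP70. The edgeR quasi-likelihood test with batch as a block and Benjamini-Hochberg adjustment called 0 of 34 members, against a background of 0.0% of 16117 genes. At an unadjusted p under 0.05 it held 4 members and 678 genes of all. DESeq2 with the same block also called 0 members, where it called 0.005% of 19990 genes higher and 0.01% lower; 2 members had an unadjusted p under 0.05. Over the members the median log2 fold change was 0.04, from -0.22 to 1.52, with 27 above 0.

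HSPA6 (hg19 chromosome 1, 161494330 to 161496684) had 0.508, 1.43 and 1.05 CPM in HIV-1 libraries of batches 1, 2 and 3, against 0.408, 0.262 and 0.36 CPM in PBS libraries. HIV-1 replicates 2 and 3 were high, with 83 and 65 counts, and the lowest HIV-1 library still lay above the highest PBS library. The log2 fold change was 1.52 (SE 0.451), with an edgeR p of 0.006 and an adjusted p of 0.946; without HIV-1 replicate 2 it was 0.84. In HIV-1+LTA libraries HSPA6 was at 0.646, 0.228 and 0.474 CPM, values that overlap those of PBS and those of HIV-1. Against HIV-1 that group gave a log2 fold change of -1.19 (SE 0.452, edgeR adjusted p 0.256), with differences within batches 1, 2 and 3 of 0.33, -2.55 and -1.14.

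Both genes of the inducible pair were slightly higher with HIV-1 in every batch, and neither passed. HSPA1A (chromosome 6, 31783320 to 31785723) had 71.1, 76.9 and 54.9 CPM in HIV-1 libraries, against 67.5, 65.6 and 42.7 CPM in PBS libraries. Each HIV-1 library lay above the PBS library of its batch, but the groups overlapped. Its log2 fold change was 0.19 (SE 0.0714, edgeR p 0.0202, adjusted p 0.946). HSPA1B, its neighbour at 31795515 to 31798031, had 59.4, 56.3 and 28.7 CPM in HIV-1 libraries, against 54.2, 47.4 and 27.2 CPM in PBS libraries. Again every batch had its HIV-1 library higher and the groups overlapped, with a log2 fold change of 0.13. In HIV-1+LTA libraries HSPA1A had 72.3, 68.1 and 58.3 CPM and HSPA1B 58.0, 57.1 and 32.5 CPM, which overlapped both other groups.

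The stress regulator itself was at a similar low level throughout. HSF1 (chromosome 8, 145515273 to 145538383) had 15.5, 17.6 and 16.6 CPM in HIV-1+LTA libraries, 17.3, 18.5 and 13.5 CPM in HIV-1 libraries and 16.0, 17.1 and 12.4 CPM in PBS libraries. All groups overlapped and no comparison called HSF1. The edgeR log2 fold change of HIV-1+LTA was -0.01 relative to HIV-1 and 0.08 relative to PBS, and that of HIV-1 relative to PBS was 0.09. HSF1 overlaps DGAT1 on the opposite strand, and the strand setting of the counting is not given in the sources used here.

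**Figure D2:**
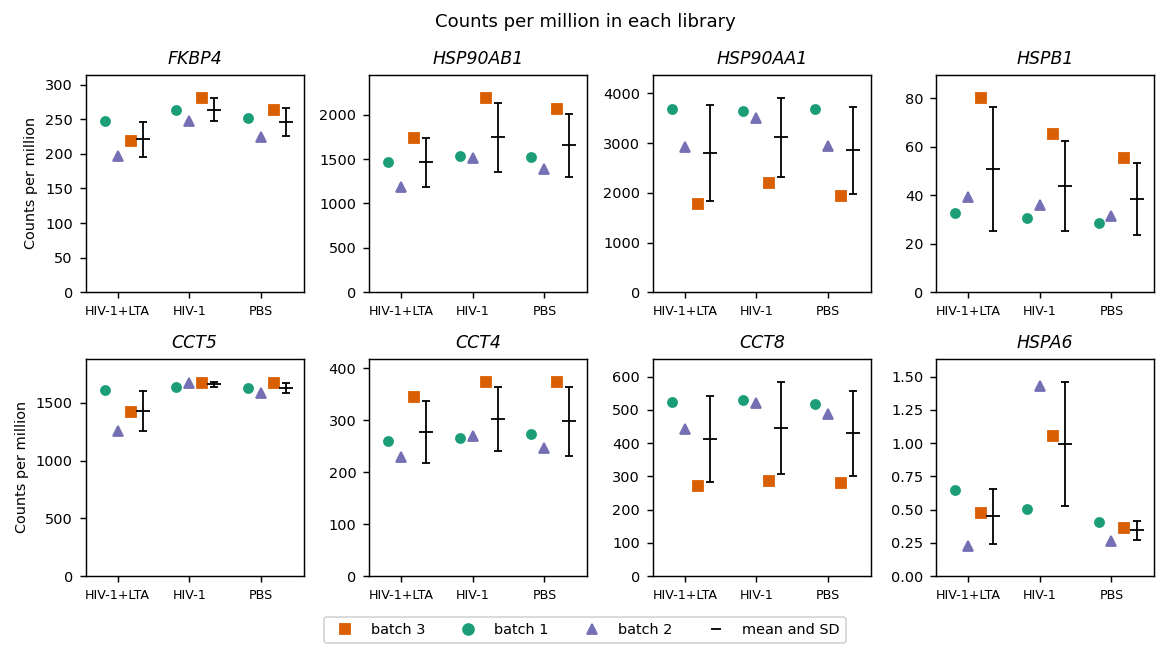
CPM in every library for 8 members, 1 panel each, with HIV-1+LTA to the left of HIV-1 and PBS, symbols for the batches, and the mean with its SD beside each group. Batch 3 stands apart from batches 1 and 2 in every group for HSP90AA1, HSPB1, CCT4 and CCT8, while HSPA6 is high in HIV-1 replicates 2 and 3.

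Most members had log2 fold changes below 0 in HIV-1+LTA against HIV-1, but DESeq2 with the batch block called few of them and edgeR none. The HIV-1+LTA against HIV-1 comparison asks what LTA did in cells with virus. Of the 34 log2 fold changes, 30 were below 0, the median was -0.16 and the range -1.19 to 0.15. The edgeR test called 0 of 34 members (0.0% of all genes); an unadjusted p under 0.05 was reached by 24 members and by 2486 genes of all. DESeq2 with the block called 3 of the 33 members with an adjusted p, FKBP4, HSP90AB1 and HSPH1, each lower, and none higher; its background was 0.485% of 13401 genes lower and 1.34% higher. With no replicate block DESeq2 called 0 members, here and against PBS. Since the members were chosen with these differences known, nothing is read from that contrast. AHSA1 at a DESeq2 adjusted p of 0.0504 and CCT2 at 0.0513 lay just outside the threshold.

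Of the HSP90 genes DESeq2 called the constitutive one, and neither test called the stress-responsive one. HSP90AB1 (chromosome 6, 44213903 to 44221625) had 1468, 1183 and 1738 CPM in HIV-1+LTA libraries of batches 1, 2 and 3, against 1534, 1510 and 2190 CPM in HIV-1 libraries. The HIV-1+LTA library was the lower one in every batch, by the least in batch 1, and the groups overlapped because batch 3 was high in both. It fell by 0.28 on the log2 scale (SE 0.0701; adjusted p 0.0104 in DESeq2 and 0.171 in edgeR). HSP90AA1 (chromosome 14, 102547079 to 102606036) had 3692, 2932 and 1783 CPM in HIV-1+LTA libraries, against 3640, 3504 and 2199 CPM in HIV-1 libraries. Its difference had no shared sign, at 0.02, -0.31 and -0.34 on the log2 scale within batches 1, 2 and 3. In PBS libraries HSP90AA1 had 3684, 2941 and 1945 CPM, and HIV-1+LTA differed from PBS by 0.0, -0.09 and -0.22 within the batches.

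Of the HSP90 co-chaperones DESeq2 called FKBP4, and edgeR called none. FKBP4 (chromosome 12, 2904136 to 2914589), an immunophilin of steroid receptor complexes, had 248, 197 and 219 CPM in HIV-1+LTA libraries, against 264, 248 and 281 CPM in HIV-1 libraries. The groups met only where HIV-1+LTA replicate 1 and HIV-1 replicate 2 were level. FKBP4 fell in DESeq2 at a log2 fold change of -0.29 (SE 0.0719, adjusted p 0.0096), with -0.09, -0.39 and -0.40 within the batches; the edgeR adjusted p was 0.171. AHSA1 (chromosome 14, 77924213 to 77935815), which activates the HSP90 ATPase, had 94.4, 80.9 and 39.0 CPM in HIV-1+LTA libraries, against 101, 96.8 and 46.0 CPM in HIV-1 libraries. Every batch had the HIV-1+LTA library lower, at an overall log2 fold change of -0.23 (SE 0.0554, edgeR adjusted p 0.171). CHORDC1, an HSP90-binding protein with zinc-binding domains, had 69.7, 54.0 and 110 CPM in HIV-1+LTA libraries, against 72.6, 67.3 and 127 CPM in HIV-1 libraries, again lower in each batch with overlapping groups. FKBP5, the immunophilin relative of FKBP4, had within-batch differences of -0.01, 0.11 and 0.10 and ranged from 106 to 174 CPM over all libraries. STIP1, which links HSP70 to HSP90, ranged from 262 to 404 CPM, CDC37, which brings kinases to HSP90, from 103 to 129 CPM, and PTGES3L from 1.24 to 2.1 CPM. PTGES3, the gene of p23 and outside the list, had an edgeR log2 fold change of -0.06 (SE 0.0642, adjusted p 0.694). For PTGES3 the value was also -0.08 against PBS and -0.08 in batch 3 against batches 1 and 2.

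In the HSP70 group HSPH1 was called. HSPH1 (chromosome 13, 31709110 to 31736525), an HSP110 protein that exchanges the nucleotide of HSP70, had 583, 447 and 236 CPM in HIV-1+LTA libraries, against 600, 535 and 282 CPM in HIV-1 libraries. The HIV-1+LTA library was lower in each batch, while the groups overlapped and batch 3 was low in both. HSPH1 fell in DESeq2 at -0.22 (SE 0.0641, adjusted p 0.044; edgeR adjusted p 0.186). HSPA8 (chromosome 11, 122928197 to 122933938) had 3126, 2489 and 3613 CPM in HIV-1+LTA libraries, against 3217, 2838 and 3916 CPM in HIV-1 libraries. Its differences within batches 1, 2 and 3 were -0.04, -0.25 and -0.16 on the log2 scale, and neither test called it. HSPA4, another HSP110 protein, ranged from 393 to 566 CPM over all libraries, and BAG3, which couples HSP70 to autophagy, from 53.7 to 75.8 CPM.

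TRiC subunits shared a direction against HIV-1. All 7 were lower with HIV-1+LTA than with HIV-1 in all 3 batches, although none differed by more than -0.03 (log2) in batch 1. Against PBS 5 of 7 were lower in all 3 batches, with TCP1 at 0.03 and CCT8 at 0.02 in batch 1. Of all genes, 16.3% were lower than with PBS in all 3 batches, as were 18 of 31 proteasome subunits. Over all genes 17.1% were lower than with HIV-1 in all 3 batches. So were 18 of 31 proteasome subunits, 7 of 14 prefoldin genes and TRiC helpers and 7 of 43 further chaperones. The shared direction was thus not particular to the ring. Summed over the 7 subunits the ring's transcripts made 4128, 3366 and 3557 CPM in HIV-1+LTA libraries, 4191, 4225 and 4026 CPM in HIV-1 libraries and 4185, 3943 and 4007 CPM in PBS libraries. HIV-1+LTA replicates 2 and 3 lay below every other library, while replicate 1 lay among them. CCT5 (chromosome 5, 10250041 to 10266501), the most abundant subunit, had 1608, 1257 and 1419 CPM in HIV-1+LTA libraries, against 1633, 1668 and 1674 CPM in HIV-1 libraries. These groups did not overlap, and the edgeR log2 fold change was -0.25 (SE 0.0793, adjusted p 0.209). CCT2 had 373, 278 and 326 CPM in HIV-1+LTA libraries, against 381, 380 and 384 CPM in HIV-1 libraries, with within-batch differences of -0.03, -0.51 and -0.28. TCP1 (chromosome 6, 160199530 to 160210735) had 498, 403 and 358 CPM in HIV-1+LTA libraries, against 500, 490 and 398 CPM in HIV-1 libraries, and here the groups overlapped. In PBS libraries TCP1 had 489, 455 and 385 CPM. CCT6A, outside the list, had an edgeR log2 fold change of -0.20 (SE 0.0657, adjusted p 0.222).

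The J-domain, mitochondrial and small heat shock genes held no call between HIV-1+LTA and HIV-1 in either test. The 5 J-domain genes, which deliver clients to HSP70, had log2 fold changes of -0.15 to -0.09 in edgeR. HSPA9, HSPD1 and HSPE1 lay between -0.22 and -0.18. HSPD1 and HSPE1 overlap on opposite strands in the annotation. HSPB8, which works with BAG3, ranged from 8.28 to 16.7 CPM over all libraries, with within-batch differences of 0.06, -0.28 and -0.53. HSPB1, a small heat shock protein that binds unfolding proteins and actin, went the other way, at 0.11, 0.08 and 0.26 within the batches.

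**Figure D3:**
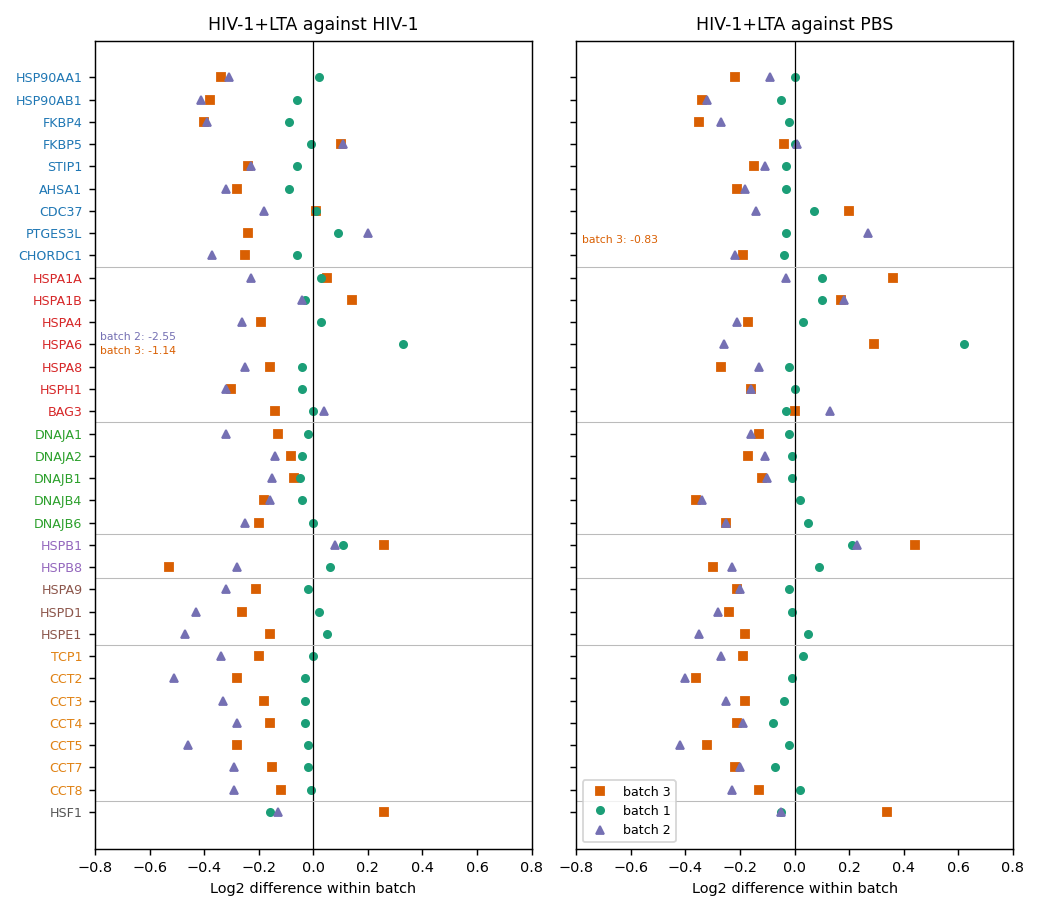
Difference in log2 CPM within each batch for the 34 genes, HIV-1+LTA against HIV-1 on the left and against PBS on the right, with genes coloured by role and 1 symbol per batch; the 3 values beyond the axis are written out. In HIV-1+LTA against HIV-1 the batch 1 points lie near 0 (median -0.02), and those of batches 2 and 3 lie mostly below it (medians -0.28 and -0.19).

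HIV-1+LTA against PBS asks what both agents did together; it shares its HIV-1+LTA libraries with the comparison above and its PBS libraries with the first, so the values stand side by side and are not independent. The median log2 fold change was -0.13 with 27 of 34 members below 0. The edgeR test called 0 of 34 (0.0% of all genes), with 15 members and 2709 genes of all at an unadjusted p under 0.05. DESeq2 with the block called HSPB1 higher and HSP90AB1 and CCT5 lower among 32 members with an adjusted p, against 0.964% of 12239 genes in each direction. CCT2 at a DESeq2 adjusted p of 0.0571 lay just outside. The same 3 members pass in the authors' deposited table, whose fold changes match that fit.

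HSPB1 (chromosome 7, 75931990 to 75933612) had 32.8, 39.4 and 80.1 CPM in HIV-1+LTA libraries, 30.4, 35.9 and 65.1 CPM in HIV-1 libraries and 28.4, 31.5 and 55.4 CPM in PBS libraries. Within each batch the order was HIV-1+LTA, then HIV-1, then PBS, while all groups overlapped and batch 3 was high in each. HSPB1 rose in DESeq2 with HIV-1+LTA against PBS by 0.29 on the log2 scale (SE 0.0726, adjusted p 0.0195; edgeR adjusted p 0.205). For HIV-1 against PBS its edgeR log2 fold change was 0.15 (SE 0.0588, p 0.0295, adjusted p 0.946).

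HSP90AB1 had 1522, 1384 and 2060 CPM in PBS libraries, above the HIV-1+LTA library of the same batch each time. With HIV-1+LTA it fell by 0.24 on the log2 scale relative to PBS (SE 0.0701; adjusted p 0.0413 in DESeq2 and 0.205 in edgeR). CCT5 had 1626, 1582 and 1669 CPM in PBS libraries, and its highest HIV-1+LTA library lay between them. CCT5 fell by 0.26 on the log2 scale (SE 0.0768; adjusted p 0.0439 in DESeq2 and 0.207 in edgeR). Its edgeR value of -0.25 was -0.16 without HIV-1+LTA replicate 2 and -0.37 without HIV-1+LTA replicate 1. DNAJB4 (chromosome 1, 78444859 to 78483648), a J-domain partner of HSP70, had 133, 122 and 130 CPM in HIV-1+LTA libraries, against 131, 144 and 157 CPM in PBS libraries. Batches 2 and 3 were lower with HIV-1+LTA and batch 1 was not, at a log2 fold change of -0.23 (SE 0.0678, edgeR adjusted p 0.205). In HIV-1 libraries DNAJB4 had 137, 131 and 143 CPM. FKBP4 had 252, 224 and 263 CPM, HSPH1 585, 469 and 247 CPM, and AHSA1 96.4, 86.1 and 42.2 CPM in PBS libraries, all 3 within the span of both other groups combined.

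The number of members called depended on HIV-1+LTA replicate 1. The members were chosen with these differences known, and that replicate differed least from its batch, so nothing is read from the contrasts with all genes below. Without it, the edgeR test called 24 of 34 members lower and none higher when HIV-1+LTA was set against HIV-1, where 7.56% of 16342 genes were called lower. These were 7 of 7 TRiC subunits, 6 of 9 HSP90 genes, 4 of 7 HSP70 genes, 3 of 5 J-domain genes, 3 of 3 mitochondrial genes and HSPB8. Against PBS it called 19 members lower (8.63% of all genes) and HSPB1 higher (7.57% of all genes), again with 7 of 7 TRiC subunits lower. DESeq2 without batch 1 called 22 members lower against HIV-1 (5.83% of 12440 genes) and 17 lower against PBS (7.85% of 13180 genes). DESeq2 without batch 2, or without batch 3, called 0 members in each of these comparisons. Members' medians within batches 1, 2 and 3 were -0.02, -0.28 and -0.19 against HIV-1 and -0.01, -0.20 and -0.19 against PBS for HIV-1+LTA. Replicate 1 thus lay close to its HIV-1 and PBS partners of batch 1, and why it did was not tested.

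Batch 3 was set against batches 1 and 2. The members were listed for their levels in the treatment groups and not for differences between batches, but with earlier results of these data known, so the tests between batches are not free of that choice. Each batch holds 1 library of each group, and the 3 libraries of a batch are not independent repeats of it, so the test compares these libraries. More members were called between batch 3 and batches 1 and 2 than in any treatment comparison. The edgeR test called 20 of 34 members higher in batch 3 (58.8%, against 35.2% of all genes) and 10 lower (29.4%, against 36.0% of all genes); DESeq2 called 20 and 10 as well. The median log2 fold change was 0.25, against -0.01 over all genes. Scaling by library totals alone moved the members' median to 0.09 and the median of all genes to -0.17, with 4264 genes higher and 7367 lower in place of 5669 and 5809, and the members' calls to 15 higher and 11 lower. In that scaling FKBP4, DNAJB1, DNAJB4, CCT2 and CCT5 were no longer called, and HSF1 was called lower.

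Markers of cell types also differed between batch 3 and the other batches. Of the 8 stellate cell and myofibroblast markers, 2 lay higher and 3 lower in every batch 3 library than in any library of batches 1 and 2. The 8 markers summed to 3847 to 4066 CPM in batch 3 against 3237 to 4391 CPM. The share of all genes set apart in this way is not given here, while 35.2% of all genes were called higher and 36.0% lower in batch 3. The marker counts are a description and are not read as a trait of these markers. COL1A2, a collagen chain, had 243 to 310 CPM in batch 3 against 34.3 to 42.5 CPM in batches 1 and 2, and LOX, which crosslinks collagen, 908 to 1112 CPM against 131 to 195 CPM. COL3A1, another collagen chain, had 136 to 262 CPM in batch 3 against 402 to 779 CPM in batches 1 and 2. The 6 macrophage and T cell markers summed to 2.82 to 4.31 CPM in batch 3 against 14.8 to 21.9 CPM, with CD163 and CD3E at 0 in batch 3. Most of that sum was CD4, at 1.22 to 2.33 CPM in batch 3 against 13 to 19.6 CPM, and PTPRC, a marker of all white blood cells, had 0.0198 to 0.113 CPM against 0.535 to 0.925 CPM. Hepatocyte, endothelial and epithelial markers summed to at most 1.28, 1.11 and 3.73 CPM in batch 3 and at most 2.11, 2.12 and 8.08 CPM in batches 1 and 2. The part of these differences in the members' batch 3 values was not tested.

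The HSP90 paralogues took opposite directions. HSP90AB1 rose in batch 3 by 0.64 on the log2 scale (SE 0.06, edgeR adjusted p 1.41e-06) while HSP90AA1 fell by 0.62 (SE 0.0651, edgeR adjusted p 3.49e-06). The ratio of HSP90AA1 to HSP90AB1 counts was 1.03 in batch 3 and 2.52 and 2.48 in batches 1 and 2 with HIV-1+LTA. With HIV-1 the ratio was 1.0 in batch 3 and 2.37 and 2.32 in the other batches, and with PBS 0.944 in batch 3 and 2.42 and 2.12 in the others. No library of batch 3 overlapped one of batches 1 and 2, whatever the treatment. With 35.2% of all genes called higher in batch 3 and 36.0% lower, opposite calls of 2 genes say nothing particular to this pair.

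Of the 7 TRiC subunits 4 were called higher and 3 lower in batch 3, where 35.2% and 36.0% of all genes were, so calls in both directions say nothing particular to the ring. CCT4 rose in batch 3 by 0.66 (SE 0.047, edgeR adjusted p 1.19e-07), and CCT7, CCT2 and CCT5 rose by 0.41, 0.21 and 0.18. CCT8 fell by 0.69 (SE 0.053, edgeR adjusted p 2.36e-07), and TCP1 and CCT3 fell by 0.15 and 0.13. The ratio of CCT8 to CCT4 counts was 0.791, 0.768 and 0.751 in batch 3 of HIV-1+LTA, HIV-1 and PBS, against 1.89 to 2.02 in the 6 libraries of batches 1 and 2. CCT6A also fell, at -0.32 (edgeR adjusted p 0.000292). Of the mitochondrial pair HSPD1 rose by 0.58 and HSPE1 by 0.67, and their count ratio stayed between 2.85 and 3.37 in all 9 libraries. With 35.2% of all genes called higher, a shared rise of 2 genes says nothing particular to that pair either.

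The members furthest from 0 were HSPB1, CHORDC1 and HSPA9 above and AHSA1, HSPH1 and HSPA1B below. HSPB1 was 2.25-fold higher in batch 3 (log2 fold change 1.17, SE 0.0491, edgeR adjusted p 1.69e-09), at 80.1, 65.1 and 55.4 CPM in batch 3 against 28.4 to 39.4 CPM in batches 1 and 2. CHORDC1 was 2.02-fold higher (SE 0.0499 on the log2 scale, edgeR adjusted p 5.5e-09), at 110, 127 and 118 CPM in batch 3 of HIV-1+LTA, HIV-1 and PBS. Its PBS libraries of batches 1 and 2 had 71.8 and 59.2 CPM. HSPA9 (chromosome 5, 137889445 to 137911364), the HSP70 of mitochondria, was 1.83-fold higher (edgeR adjusted p 2.21e-08), at 582, 654 and 635 CPM in batch 3 against 335 to 401 CPM in the other batches. None of these genes overlapped between batch 3 and the others, but they were picked for their fold changes. Within every group, 40.5% of all genes were higher in batch 3 and 41.9% were lower. The share of all genes without overlap is not given here, so nothing particular to these genes is read from it.

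Lower in batch 3, AHSA1 stood at 39.0, 46.0 and 42.2 CPM for HIV-1+LTA, HIV-1 and PBS, against 80.9 to 101 CPM in batches 1 and 2. Its log2 fold change was -0.97 (SE 0.0502, edgeR adjusted p 8.53e-09). HSPH1 had a log2 fold change of -0.91 (SE 0.0536, edgeR adjusted p 2.33e-08) and HSPA1B -0.75 (SE 0.0502, edgeR adjusted p 6.72e-08). In both genes every batch 3 library lay below every library of batches 1 and 2. These genes were also picked for their fold changes, and nothing particular to them is read from that. HSPA1A, the near copy of HSPA1B, fell by 0.28 (SE 0.0629, edgeR adjusted p 0.00152), and the count ratio of HSPA1A to HSPA1B was 1.8, 1.91 and 1.57 in batch 3 of HIV-1+LTA, HIV-1 and PBS, against 1.19 to 1.38 elsewhere. AHSA1 overlaps VIPAS39, and HSP90AA1 overlaps WDR20, on the opposite strand.

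HSPA8 rose in batch 3 by 0.59 (SE 0.0561, edgeR adjusted p 1.59e-06), with 4103 CPM in the PBS library of batch 3 against 3165 and 2562 CPM in PBS libraries of batches 1 and 2. FKBP5, STIP1, FKBP4, HSPA4, BAG3, DNAJB6, DNAJA1, DNAJB4 and DNAJB1 also rose, by 0.18 to 0.73. DNAJA2 and HSPB8 fell, by 0.68 and 0.52. The 4 members not called were CDC37 (0.11), HSF1 (-0.11, SE 0.0787, edgeR adjusted p 0.236), PTGES3L (0.18) and HSPA6 (0.26, SE 0.396, edgeR adjusted p 0.572). Of those, CDC37 turned to -0.05 with library totals, HSPA6 to -0.03 without HIV-1 replicate 1 and PTGES3L to -0.10 without PBS replicate 3. Across members the batch 3 fold change had a Pearson correlation of -0.0706 with transcript GC content and -0.123 with log2 transcript length. The Spearman values were -0.121 and 0.0726, so the sign for length depended on the measure. Over all genes tested the Pearson values were -0.0369 and -0.00839 and the Spearman values -0.111 and 0.0401. The members' values are given as a description over 34 genes of the same libraries.

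**Figure D4:**
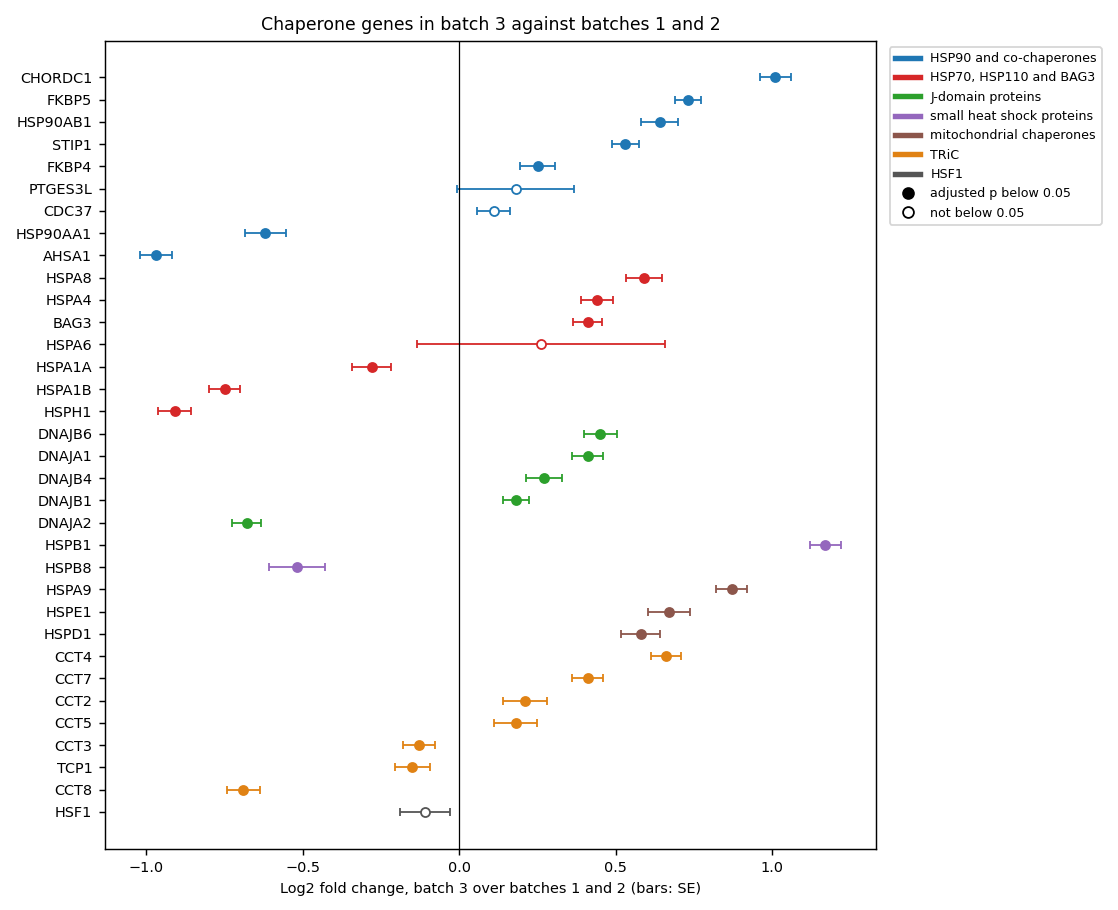
Log2 fold change of the 34 genes in batch 3 against batches 1 and 2 with bars of 1 SE, grouped by role; filled points have an edgeR adjusted p below 0.05. HSP90AB1 and CCT4 lie above 0 where HSP90AA1 and CCT8 lie below it, and the genes span -0.97 for AHSA1 to 1.17 for HSPB1.

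Batch 2 against batch 1 gave smaller differences. The edgeR test called 0 of 34 members (0.031% of all genes higher, 0.0% lower); 18 members and 1869 genes of all had an unadjusted p under 0.05. DESeq2 called 5 of 32 members lower in batch 2 (0.236% of 11464 genes lower). HSPH1 fell by 0.32 (adjusted p 0.000477), HSPA8 by 0.30 (0.00205), HSPE1 by 0.33 (0.0167), CHORDC1 by 0.28 (0.0167) and HSP90AA1 by 0.27 (0.0293), all in DESeq2 on the log2 scale. The members' median difference was -0.30 in HIV-1+LTA, -0.03 in HIV-1 and -0.10 in PBS libraries.

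Outside the members, 45 further chaperones and co-chaperones, most of them cytosolic but with SERPINH1 and HSPA13 of the endoplasmic reticulum among them, were looked up. The 43 that were tested had a median log2 fold change of -0.02 for HIV-1+LTA against HIV-1, -0.00 against PBS, and DESeq2 called 0 of them in either comparison, as did edgeR; 5 and 8 of them had an unadjusted DESeq2 p under 0.05. The 14 prefoldin genes and TRiC helpers had medians of -0.09 and -0.13, and PDCL3, which hands clients to TRiC, fell against PBS (-0.31, DESeq2 adjusted p 0.0422). The 14 chaperones of the endoplasmic reticulum had 0 calls in DESeq2 and edgeR, with 2 at an unadjusted DESeq2 p under 0.05 against HIV-1 and 0 against PBS, and medians within 0.01 of 0. The 10 other mitochondrial chaperones and proteases also had 0 calls in both tests, with 1 and 3 at an unadjusted DESeq2 p under 0.05 and medians of -0.08 and -0.07. Of 13 actin and tubulin genes, clients of TRiC, TUBA1C fell in HIV-1+LTA against HIV-1 (-0.24, DESeq2 adjusted p 0.0251) and against PBS (-0.22, 0.0478). All 31 proteasome subunits had log2 fold changes below 0 in both comparisons, with medians of -0.12 and -0.13, and PSMD2, a subunit of the regulatory cap, fell in both (-0.29, DESeq2 adjusted p 0.00624, and -0.32, 0.00503). Among 8 tested genes induced by glucocorticoids, which act through an HSP90 client, KLF9 rose against HIV-1 (0.36, DESeq2 adjusted p 0.00519) and DUSP1 fell against HIV-1 (-0.45, 0.013) and against PBS (-0.46, 0.0232). The edgeR test called 0 genes of any list in these comparisons.

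In batch 3 the lists varied, and no list was tested as a whole. Against 35.2% of all genes higher and 36.0% lower, the edgeR test called 18 of the 43 further chaperones higher and 14 lower, 8 and 3 of the 14 prefoldin and helper genes, and 19 and 6 of the 31 proteasome subunits. It called 5 and 4 of the 14 chaperones of the endoplasmic reticulum, 3 and 5 of the 10 mitochondrial genes, 10 and 2 of the 13 actin and tubulin genes and 5 and 3 of the 8 glucocorticoid genes. HSPA12A, a distant HSP70 relative, rose by 1.18 (edgeR adjusted p 1.82e-09) and HSPA5, the HSP70 of the endoplasmic reticulum, by 0.84 (edgeR adjusted p 9.45e-09), while HSPA13, an HSP70 relative of the endoplasmic reticulum, fell by 0.92 (edgeR adjusted p 1.3e-08).

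The other deposited readout was a list of 166 ChIP-seq peaks from 1 HIV-1 library, with no antibody named, no value per peak and a cell line label, Lx5, that differs from the Lx2 of its title. Of the 34 genes, 1 had a peak within 10 kb, against 199 of 20149 protein-coding genes (0.988%); the count was the same within 1 kb and within 100 kb. That gene was TCP1. Its peak, hg19 chr6:160211015-160211201 and 187 bases long, lay 280 bases before the TCP1 start and 171 bases inside the neighbouring MRPL18, which starts at 160210844 on the other strand. The next nearest member, FKBP4, was 530064 bases from a peak.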

How the data were processed

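Per the submitters' processing notes and the labels, fastp, STAR, SAMtools and HTSeq made the RNA-seq files on hg19, and Bowtie2, bedtools and deepTools served the ChIP-seq; versions, the strand setting and the antibody are not given in the sources used here. Raw counts per gene symbol were deposited, at 50.6 to 90.6 M in a library. The authors' DESeq2 table gives a log2 fold change with its standard error, the p-value before and after adjustment, a Wald score and a signal (the mean of size-factor-scaled counts); it names no comparison, and 19990 of its 19990 fold changes lie within 0.01 of a DESeq2 fit of HIV-1+LTA against PBS with batch. The deposited peak list holds positions only.

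From the counts, 1 fit over all 9 libraries with group and batch was made with the edgeR 4.0.16 quasi-likelihood test (TMM scaling, filterByExpr by group, Benjamini-Hochberg over 16117 genes, a call being an adjusted p below 0.05), in R 4.3.3. DESeq2 1.42.0 with the same terms used genes whose counts total 10 or more; genes it gave no adjusted p stayed out of its counts. The batch number equals the replicate number per the labels, and the pairing of libraries across groups comes from there. Deviations from the group means correlated at 0.705 to 0.917 for libraries of the same batch, and at 0.684 to 0.764 between batches 1 and 2, so the values set batch 3 apart but do not tell batch 1 from batch 2. Alternatives were no replicate block, limma-voom (limma 3.58.1), other scalings and filters, only the 6 libraries compared, and leaving out each library or batch; DESeq2 leaving out each batch was added after seeing the data. CPM is a gene's count relative to the library total; within-batch differences are of log2 CPM (TMM, prior count 2). The tests were checked on simulated data. Gene positions and lengths come from GENCODE on hg19, promoters from RefSeq. HSPA6, with at most 83 counts in a library, has the widest counting error relative to its level.

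The members, lists and tests were chosen with earlier results of these data known. Values in every library are given for members called in a treatment comparison, the 3 lowest edgeR p of each, the 3 highest and 3 lowest called fold changes of batch 3, and HSP90AA1, HSPA8, HSPA1A, HSPA1B, HSPA6, HSF1 and TCP1; other values were chosen after they were seen. The ChIP-seq PBS library was not analysed here.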

Additional observations from a re-analysis of the deposited data

How the results depend on the processing

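Members called against HIV-1 and against PBS by HIV-1+LTA numbered 0 and 0 in edgeR with the replicate block, and 0 and 0 also with limma-voom, with other scalings, with only the 6 libraries compared, and with no replicate block in edgeR. They numbered 3 and 3 in DESeq2 with the block but 0 and 0 with no replicate block, so each of those calls rests on having batch in the model. No other pairing of the libraries was fitted. They numbered 12 and 7 in edgeR on all genes with any count, 20 and 12 without batch 1, and 22 and 18 in DESeq2 without batch 1. Leaving out 1 library gave 0 to 24 against HIV-1 and 0 to 20 against PBS, where 24 and 20 came without HIV-1+LTA replicate 1 and 1 came without PBS replicate 1. HIV-1 against PBS had 0 calls under each of these settings except edgeR on all genes with any count, with 1 (HSPA6). Its median of 0.04 ran from -0.01 to 0.09 with 1 library left out and was -0.0 in DESeq2 without batch 2. Batch 2 against batch 1 had 5 calls in DESeq2, 7 on all genes with any count, and 0 to 1 with 1 library left out. The batch 3 median was 0.09 with library totals, where 5 members lost their call, and its calls ran from 27 to 30 with 1 library left out. Each count and median was set against its main value under each setting, so the same result enters many times. In these comparisons 177 values stayed within a set limit and 19 moved beyond it. That limit was a ratio to the main value for counts, and the SD of the medians of single batches or groups for medians. A count within the limit can still differ from the main one. Of the single-gene values, where the same gene again enters under each setting, 297 kept their direction and side of the threshold, and 40 newly passed it. Outside those, the uncalled CDC37, HSPA6 and PTGES3L changed sign in batch 3, at -0.05, -0.03 and -0.10. The cause of these changes was not tested. Batches and libraries are few, no group had LTA alone, and HSPA6 rests on at most 83 counts per library.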
